A study of Bos grunniens with 12 samples.

Results

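The genes described here are the rows of the yak testis expression table whose Gene Ontology (GO) annotation holds the term "immune response". Genes that also carry the GO term for the MHC class II complex, or the one for an antimicrobial humoral response by antimicrobial peptides, were left out. Of the 20953 genes in the table, 179 carried the term, 14 of these were left out, and 165 remained. The term was picked because its genes tended to be higher in the 5-year libraries, so the age differences below are descriptions of the values that led to the choice. Of the 165 genes, 45 had a mean of at least 0.5 FPKM over the 6 input libraries and entered the comparison of ages, as did 12437 genes of the whole table. FPKM counts fragments per kilobase of a gene's transcript relative to all fragments mapped in that library. The other 120 genes were below that level, and 30 of them were listed at 0 in every library. The members nearest to the threshold were GPR65 at 0.514 FPKM inside it and FYB1 at 0.475 FPKM outside it.

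The testis is an immune-privileged organ. Sertoli cells join in a barrier that keeps most immune cells away from the meiotic and haploid germ cells, while macrophages and a few lymphocytes live in the tissue between the tubules. Immune recognition rests on surface molecules that present peptides to T cells (MHC class I), on chemokine receptors that guide cells along gradients, on receptors and ligands of the tumour necrosis factor (TNF) family, and on sensors such as toll-like receptors that detect microbial products.

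Testes of 6 healthy domestic yaks (Bos grunniens) from the same location were studied, 3 aged 18 months (18M, given as 1.5 years) and 3 aged 5 years (5Y). Each testis gave an m6A immunoprecipitated library and an input library, and the expression values come from the 6 input libraries, 3 per age. The 18M testes were removed by castration and the 5Y testes came from slaughtered animals, so age and the way of collection cannot be told apart. Groups were taken from the age in the sample titles, because the stage field of the deposited record assigns to each age the opposite stage. The libraries labelled 18M held high levels of elongating spermatid transcripts: TNP1, a transition protein of condensing spermatid chromatin, was at 883, 852 and 879 FPKM in 18M and at 201, 641 and 550 FPKM in 5Y. The study took the younger animals as not yet sexually mature and saw no spermatids in their sections. The 18M levels differ from that description. With the labels exchanged, the levels now under 5Y would differ from it too. Whether the labels were exchanged was not tested. All directions below rest on the ages in the titles and would turn round if they were exchanged. The FPKM of a library summed to between 116187 and 139921, the lowest sum belonging to 5Y replicate 1, and it is unknown how many fragments a value rests on.

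Gene symbols in the table need care. Of the 165 genes, 105 carried a symbol that stood on more than one identifier, and 81 were not the lowest-numbered identifier of their symbol. In many such rows the GO terms describe another gene than the symbol does. The rows listed as ACSL4, TMA16, RRAS2 and LANCL3 carried ferroxidase and iron sequestering terms, which are those of the ferritin heavy chain. Rows listed as PATL2, TRIM26, TRIM7, TCF19 and SFTA2 carried MHC class I terms, and the rows listed as PSMD13 carried the terms of interferon-induced transmembrane proteins. For some symbols that stood on a single identifier the terms were those of a neighbour: METTL9, FYCO1 and ACAD11 overlap IGSF6, CXCR6 and ACKR4 in the RefSeq gene table, and METTL9 itself is known as a histidine methyltransferase of proteins. Tested members given library by library therefore carry their identifier where the symbol is shared. Many other members on shared symbols are given by symbol alone. Their values are those of the member row, and other rows with the same symbol can differ. Members are grouped mostly by their GO terms.

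Among the 45 genes tested, 30 had a higher and 15 a lower mean log2 level in 5Y, where 53.5% of all genes tested were higher. The median log2 fold change of the members, 5Y minus 18M on the log2(FPKM + 0.1) scale, was 0.46, and that of all genes tested was 0.043. With an unadjusted p under 0.05 and a fold above 2 in limma, 6 members were higher in 5Y, beside 4.01% of all genes tested, and 1 was lower, beside 5.25%, so that 7 differed in either direction, beside 9.26%. The 3 libraries of each age did not overlap for 11 members that were higher in 5Y, beside 19.8% of all genes, and for 6 that were lower, beside 13.9%. None of the 45 had an adjusted p under 0.05 in limma (0.0322% of all genes had), and 12 had an unadjusted p under 0.05 (25.1% of all genes). Since the term was chosen on this contrast, nothing is read from these counts. A filter on the mean also favours genes that are high at 1 age: 5 of the 45 reached 0.5 FPKM at only 1 age, 4 of them in 5Y. Without 5Y replicate 1 the median of the members was 0.18, with 3 members higher (beside 1.99% of all genes) and 1 lower (beside 1.31%) by the same thresholds. With a pseudocount of 1, which weighs low values less, 1 of the 6 calls as higher was left (beside 0.989% of all genes), that of the gene listed as TCF19 (ENSBGRG00000012639).

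**Figure D1:**
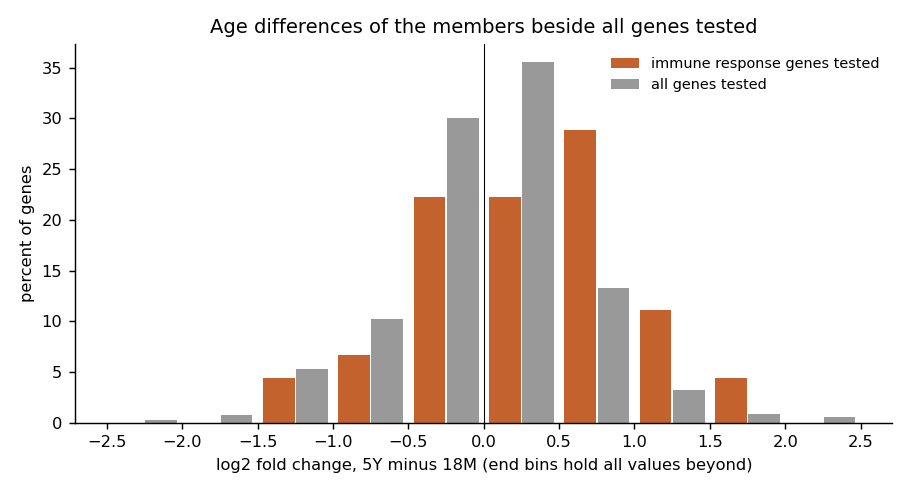
Percent of genes (vertical axis) in each 0.5-wide bin of log2 fold change, 5Y minus 18M (horizontal axis), for the 45 immune response genes tested (orange) and all 12437 genes tested (grey). The bin from 0.5 to 1 holds 28.9% of the members and 13.3% of all genes, and the bin from -0.5 to 0 holds 22.2% of the members and 30.0% of all genes.

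The same values are given here by how many identifiers carry a symbol, again as a description. The 20 tested members whose symbol stood on 1 identifier had a median log2 fold change of -0.074, with 9 higher in 5Y and none of the 6 calls that were higher. The 25 members on shared symbols had a median of 0.54, with 21 higher. Among these, the 11 that were the lowest-numbered identifier of their symbol had a median of 0.052, and the 14 others one of 0.58. Over all genes tested the medians of the corresponding classes were 0.0499 and 0.0306. Of the 25, 13 belong to the MHC class I, ferritin and interferon-induced families named above, whose copies can be near-identical. Only uniquely mapped reads were kept upstream, so reads that match several copies equally well were dropped, and the levels of single copies are uncertain.

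**Figure D2:**
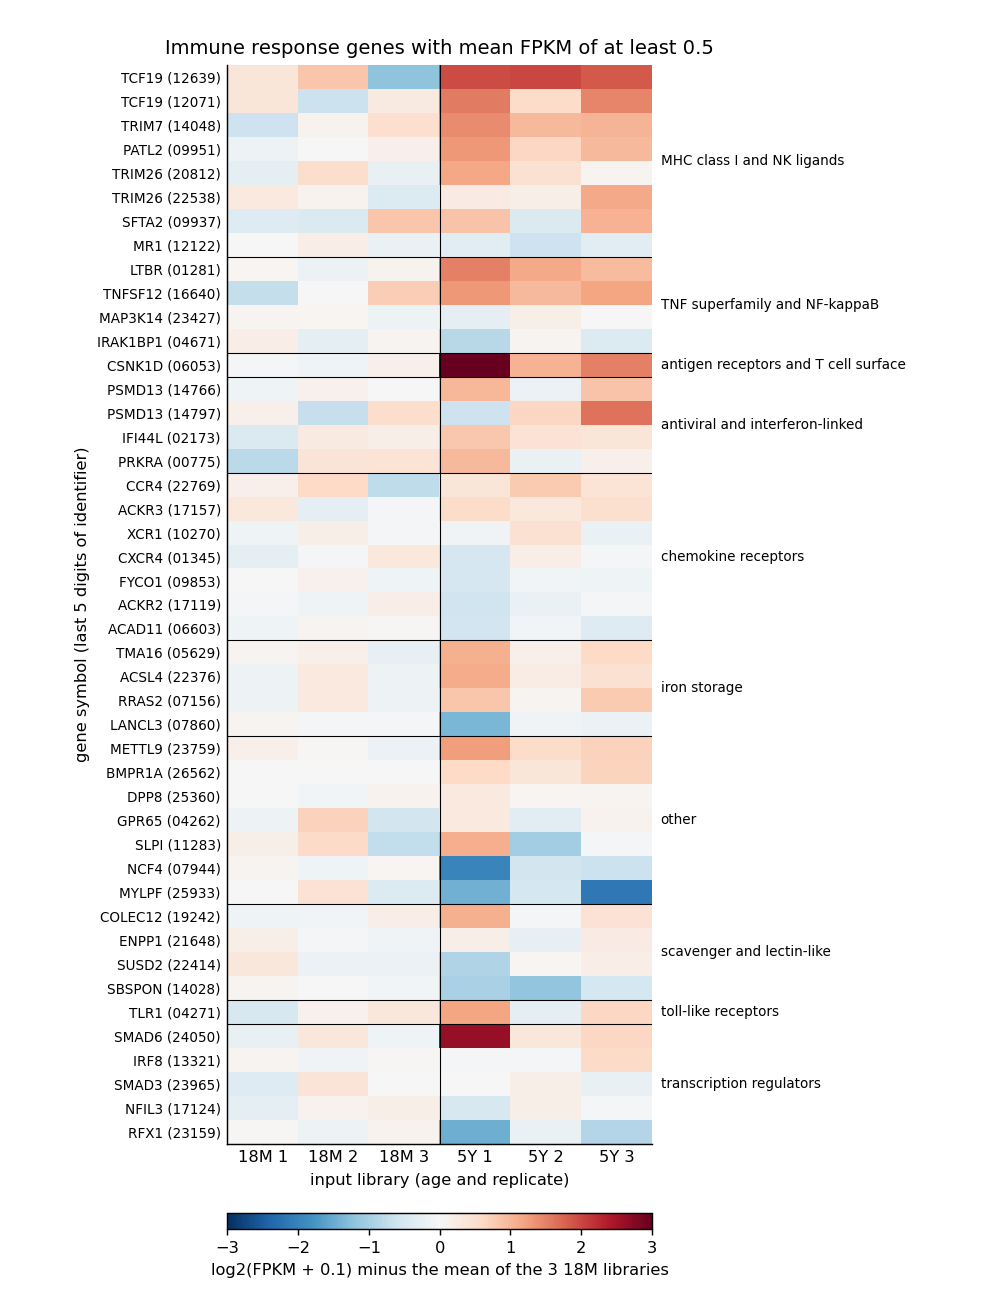
Log2(FPKM + 0.1) of each tested member (rows, grouped mostly by GO terms) in each input library (columns), as the difference from the mean of the 3 18M libraries. Red is higher and blue is lower; the MHC class I rows are mostly red in all 5Y columns, while the chemokine receptor rows are pale at both ages.

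MHC class I molecules display peptides from inside the cell to cytotoxic T cells. Of 16 members with such terms 8 were tested, and 7 of these had a higher mean in 5Y, with a median log2 fold change of 0.76 over the 8. Their FPKM summed over all 16 ran from 47.5 to 64.8 in the 18M libraries and from 78.9 to 124 in the 5Y libraries, so the ages did not overlap. Most of each sum came from the rows listed as PATL2 (ENSBGRG00000009951) and TRIM26 (ENSBGRG00000020812). Without that PATL2 row the sums of the ages would overlap. The largest difference was in a gene listed as TCF19 (ENSBGRG00000012639), at 0.631, 0.912 and 0.143 FPKM in 18M and at 2.09, 2.15 and 1.93 FPKM in 5Y. All 3 5Y libraries lay close together above the 18M libraries, of which replicate 3 was the lowest. The difference was 1.93 ± 0.51 (log2 fold change ± SE), and it was 1.92 without 5Y replicate 1.

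Another gene listed as TCF19 (ENSBGRG00000012071) was at 0.887, 0.391 and 0.812 FPKM in 18M and at 2.15, 1.02 and 2.01 FPKM in 5Y. The ages did not overlap, though 5Y replicate 2 lay nearer to the 18M values than to the other 5Y libraries. The log2 fold change was 1.20 ± 0.39, and the call was lost without 18M replicate 2 (0.88), 5Y replicate 1 (1.01) or 5Y replicate 3 (1.06). The gene listed as TRIM7 (ENSBGRG00000014048) was at 1.08, 1.87 and 2.47 FPKM in 18M and at 4.76, 3.47 and 3.57 FPKM in 5Y. Here too every 5Y library was above every 18M library. Its log2 fold change of 1.14 ± 0.30 was 0.83 without 18M replicate 1 and 1.00 without 5Y replicate 1, and the call was lost in both cases.

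The most abundant of these genes was listed as PATL2 (ENSBGRG00000009951), and its terms include antigen presentation by MHC class Ib and positive regulation of T cell cytokine production. It was at 20.9, 23.3 and 26.2 FPKM in 18M and at 57.4, 36.2 and 45.8 FPKM in 5Y. The 18M libraries were tightly grouped and all lay below the 5Y libraries. Its log2 fold change was 0.96 ± 0.20, just under the fold threshold, and the gene was past it when libraries were scaled to the same sum (1.09), after quantile normalization (1.17), and without 18M replicate 3 (1.05) or 5Y replicate 2 (1.13). The gene listed as TRIM26 (ENSBGRG00000020812) was at 18.9, 33.6 and 19.8 FPKM in 18M and at 52.0, 31.8 and 24.4 FPKM in 5Y. These ages overlapped, since 18M replicate 2 was above 2 of the 5Y libraries. MR1, which presents vitamin B metabolites to mucosal-associated T cells, was the tested member of the family with a lower mean in 5Y, 0.847 ± 0.132 FPKM in 18M and 0.607 ± 0.0847 FPKM in 5Y (SD, n = 3 per age), and its ages did not overlap.

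The 8 rows of the family below the threshold were listed as TCF19, PATL2, IYD, ZNF596 and RPS9 and had means of at most 0.412 FPKM. They did not all follow the tested genes. A further gene listed as TCF19 (ENSBGRG00000011793) lay between 0.519 and 0.811 FPKM in 18M and between 0.0855 and 0.353 FPKM in 5Y, and the row listed as ZNF596 was also lower without overlap. A second row listed as PATL2 (ENSBGRG00000009835) was higher without overlap, with a mean of 0.0828 FPKM in 18M and 0.433 FPKM in 5Y.

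The TNF superfamily and its NF-kappaB branch had 15 members, of which 4 were tested. LTBR (ENSBGRG00000001281) is the receptor for lymphotoxin and is known for its part in lymph node development, a term that this row also carried. It was at 0.996, 0.824 and 1.04 FPKM in 18M and at 2.89, 2.21 and 1.94 FPKM in 5Y. The ages were clearly apart, with a log2 fold change of 1.20 ± 0.22 that was 1.05 without 5Y replicate 1 and kept its call without any 1 of the 6 libraries. A non-member row with the same symbol (ENSBGRG00000001292) was at 4.59 ± 0.480 FPKM in 18M and 4.72 ± 0.415 FPKM in 5Y (SD, n = 3 per age).

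TNFSF12 (ENSBGRG00000016640), the ligand known as TWEAK, was at 0.200, 0.392 and 0.727 FPKM in 18M and at 1.12, 0.872 and 1.03 FPKM in 5Y. The 5Y libraries were all higher, though 18M replicate 3 came close to them. The log2 fold change was 1.15 ± 0.41, and the call was lost without 18M replicate 1 (0.79), 18M replicate 2 (1.15), 5Y replicate 1 (1.08) or 5Y replicate 3 (1.13). A row with the same symbol outside the list (ENSBGRG00000018813) differed in the other direction, with a mean of 31.5 FPKM in 18M and 16.3 FPKM in 5Y. The 2 signalling genes of this group overlapped between ages: MAP3K14, the NF-kappaB-inducing kinase, was at 2.95 ± 0.258 and 2.88 ± 0.470 FPKM, and IRAK1BP1 at 10.4 ± 1.71 and 8.17 ± 2.63 FPKM (18M and 5Y, SD, n = 3). The member rows of the ligands TNF, FASLG, CD40LG, TNFSF4, TNFSF8, TNFSF11, TNFSF13 and TNFSF14 were all below the threshold, with means of at most 0.311 FPKM. Rows outside the list with the symbols CD40LG (ENSBGRG00000019321) and TNFSF14 (ENSBGRG00000026022) were above it. That CD40LG row was called as higher in 5Y, while the ages of that TNFSF14 row overlapped.

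**Figure D3:**
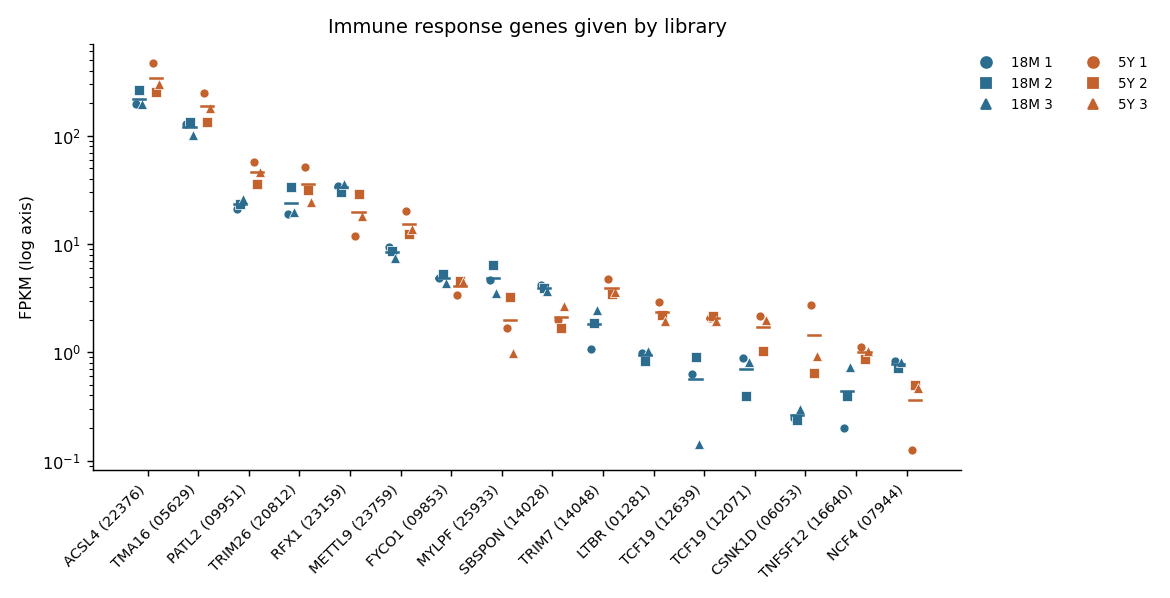
FPKM (log axis) of the members given library by library, ordered by mean level, with 18M in blue and 5Y in orange. Symbols mark the replicate and bars the mean of 3 libraries; the gene listed as ACSL4 reaches 467 FPKM in 5Y replicate 1, and NCF4 is lowest there at 0.125 FPKM.

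Antigen receptor and T cell surface genes were the largest group, with 36 members. Only 1 of them was tested, and 15 were listed at 0 in all 6 libraries. The gene tested is listed as CSNK1D (ENSBGRG00000006053) but carried T cell activation and adaptive immune response terms, and in the RefSeq table the T cell surface gene CD7 is the next gene to CSNK1D. It was at 0.248, 0.239 and 0.301 FPKM in 18M and at 2.76, 0.644 and 0.930 FPKM in 5Y. The 18M libraries were nearly alike, and 5Y replicate 1 was far above the other 5Y libraries. The difference was 1.84 ± 0.52, or 1.27 without that library. LAT, the adaptor that links the T cell receptor to its signalling, was listed at 0 in all 18M libraries and at 0.0978 to 0.436 FPKM in 5Y. FYB1, an adaptor of T cells, had a mean of 0.292 FPKM in 18M and 0.658 FPKM in 5Y, with overlap between ages. The rows listed under T cell receptor and immunoglobulin symbols, TRAV14DV4, TRAV20, TRBV3-1 and IGHM, had means of at most 0.297 FPKM. The rest of the group was listed as SLC5A4, KCND2, TMEM121, PAX8 and INSYN1. Of the 35 rows below the threshold, 1 was higher in 5Y without overlap (LAT) and 1 was lower. The lower one was listed as SLC5A4 (ENSBGRG00000020481), with means of 0.0744 FPKM in 18M and 0.0377 FPKM in 5Y. A row listed as TMEM121 (ENSBGRG00000008126) had means of 0.688 FPKM in 18M and 0.0254 FPKM in 5Y, with overlap. It reached 1.92 FPKM in 18M replicate 3.

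Chemokine receptors had 21 members. None of the 7 that were tested passed the thresholds, none was without overlap between ages, and their log2 fold changes ran from -0.35 to 0.52. CXCR4 (ENSBGRG00000001345), the receptor for CXCL12, was the most abundant of these members, at 15.0 ± 3.11 FPKM in 18M and 13.8 ± 3.27 FPKM in 5Y (SD, n = 3). XCR1 was at 2.17 ± 0.242 and 2.29 ± 0.602 FPKM and CCR4 at 0.540 ± 0.274 and 0.761 ± 0.142 FPKM, in the same order. The scavenging receptors ACKR2 (ENSBGRG00000017119) and ACKR3 (ENSBGRG00000017157), which take up chemokines without classical signalling, had log2 fold changes of -0.28 ± 0.23 and 0.46 ± 0.29. A row outside the list with the symbol ACKR3 (ENSBGRG00000017207) had means of 19.4 FPKM in 18M and 20.0 FPKM in 5Y, above those of CXCR4. The row listed as ACAD11 differed by -0.35 ± 0.19.

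Among the chemokine receptors below the threshold, CX3CR1 and CXCR6 had all 5Y libraries above all 18M libraries. CX3CR1, the fractalkine receptor of monocytes and cytotoxic lymphocytes, lay between 0 and 0.0591 FPKM in 18M and between 0.388 and 0.813 FPKM in 5Y. CXCR6 lay between 0.0201 and 0.212 FPKM in 18M and between 0.299 and 0.609 FPKM in 5Y. Both receptors are known from activated T cells and NK cells. CXCR5, which brings B cells into follicles, was lower in 5Y without overlap, from 0.137 to 0.326 FPKM in 18M and from 0 to 0.0646 FPKM in 5Y. CCR7 was at 0 in 5 of the 6 libraries. The ages of CCR2, CCR3, CCR9, CCRL2, CXCR3, ACKR4 and of the rows listed as SLC25A38 and ARPC2 overlapped. Over the whole list, 90 members were above 0 and below the threshold. Of these, 12 had all 5Y libraries above the 18M libraries, beside 8.93% of all genes at such levels, and 5 had all of them below, beside 4.92%.

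**Figure D4:**
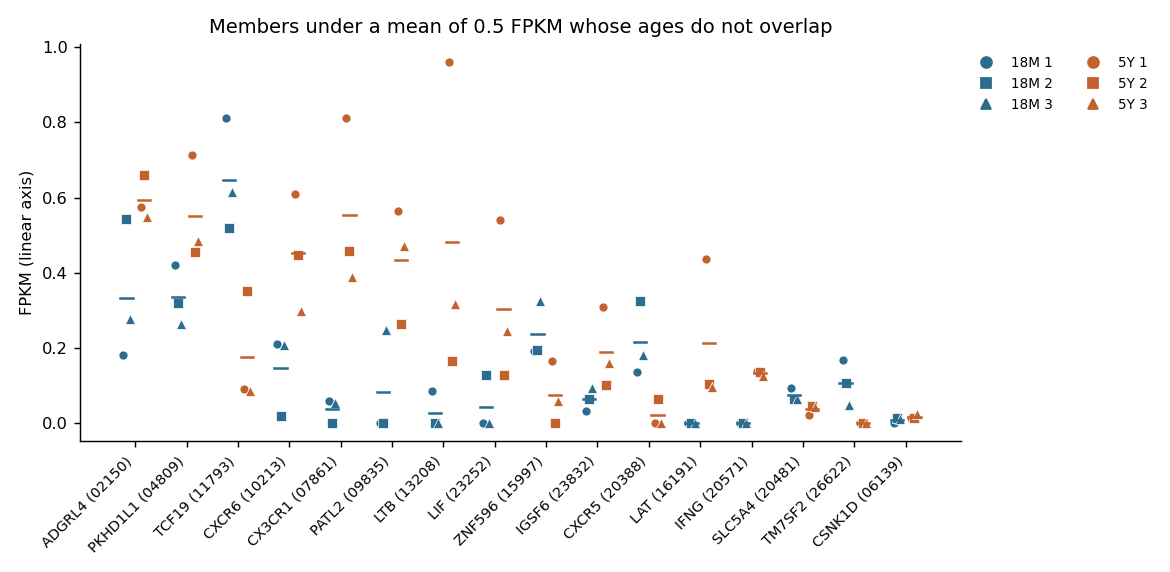
FPKM (linear axis) of 16 of the 17 members below the threshold whose 18M libraries (blue) and 5Y libraries (orange) did not overlap, with bars for the means of 3 libraries. CX3CR1, LTB and LAT are at or near 0 in 18M and highest in 5Y replicate 1, and CXCR5 and TM7SF2 are at or near 0 in 5Y.

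The cytokine group had 15 members, and not 1 reached the threshold, so no comparison of ages was made for them. IFNG, the cytokine by which T and NK cells activate macrophages and raise MHC class I, was listed at 0 in all 3 18M libraries and at 0.140, 0.137 and 0.126 FPKM in 5Y. LIF lay between 0 and 0.127 FPKM in 18M and between 0.129 and 0.540 FPKM in 5Y. The interleukin genes IL1A, IL5, IL10, IL13 and IL21 and the factors CSF2, CSF3 and OSM were at or near 0, and 4 rows listed as CSNK1D had means of at most 0.450 FPKM. LTB, a lymphotoxin subunit and ligand of LTBR, was listed at 0 in 2 of the 18M libraries and lay between 0.165 and 0.961 FPKM in 5Y, highest in 5Y replicate 1.

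Iron storage genes carried most of the expression of the list. The 6 rows with ferritin terms made up between 59.3% and 72.7% of the summed FPKM of all 165 members in a library. Ferritin heavy chain oxidises and stores iron, and its terms include restraint of cell proliferation. The row listed as ACSL4 (ENSBGRG00000022376) was at 195.8, 265 and 195.6 FPKM in 18M and at 467, 254 and 299 FPKM in 5Y. The ages overlapped, since 18M replicate 2 was above 5Y replicate 2, and the log2 fold change was 0.60 ± 0.28, or 0.35 without 5Y replicate 1.

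The row listed as TMA16 (ENSBGRG00000005629) was at 128, 133 and 102 FPKM in 18M and at 249.9, 134 and 181 FPKM in 5Y. It did not overlap, but 18M replicate 2 and 5Y replicate 2 were almost equal, and its log2 fold change of 0.60 ± 0.26 was 0.37 without 5Y replicate 1. Of the other ferritin-type rows that were tested, RRAS2 differed by 0.57 ± 0.24 and LANCL3 by -0.55 ± 0.33, the latter being -0.14 without 5Y replicate 1. The rows listed as TMEM47 and CDK1 were below the threshold.

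The antiviral and interferon-linked group had 5 members, of which 4 were tested. All 4 had a higher mean in 5Y, with log2 fold changes from 0.32 to 0.55, and none passed the thresholds. The row listed as PSMD13 (ENSBGRG00000014766), with terms of interferon-induced transmembrane proteins that block viral entry, was at 4.004 ± 0.359 FPKM in 18M and 6.28 ± 2.43 FPKM in 5Y (SD, n = 3). IFI44L, an interferon-induced gene, was at 0.510 ± 0.151 and 0.774 ± 0.148 FPKM, and its ages did not overlap. PRKRA, an activator of the double-stranded RNA kinase, was at 1.98 ± 0.834 and 2.47 ± 1.12 FPKM. The row listed as ADGRL4, next to IFI44 but for 1 gene in the RefSeq table, was below the threshold and had a mean of 0.334 FPKM in 18M and 0.595 FPKM in 5Y, without overlap.

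None of the sensors and scavengers tested passed the thresholds. TLR1, which pairs with TLR2 to recognise bacterial lipopeptides, was at 1.30 ± 0.377 FPKM in 18M and 2.01 ± 1.00 FPKM in 5Y (SD, n = 3), with overlap. SBSPON, a secreted protein with a thrombospondin-type repeat that carried scavenger receptor terms, was at 4.23, 3.97 and 3.72 FPKM in 18M and at 1.99, 1.68 and 2.71 FPKM in 5Y. All its 5Y libraries were below the 18M libraries. Its log2 fold change of -0.90 ± 0.20 passed the fold threshold only without 5Y replicate 3 (-1.08) when single libraries were left out. SUSD2, COLEC12 and ENPP1 had log2 fold changes from -0.22 to 0.48, and their ages overlapped. Below the threshold were rows listed as TLR7 and ALAS1 with toll-like receptor terms, and ENDOU, TINAGL1, VTN and HMCN1 with scavenger terms, with means of at most 0.470 FPKM.

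None of the 5 transcription regulators tested passed the thresholds. RFX1, a winged-helix factor that binds X-box promoters such as those of MHC class II and ciliary genes, was at 34.0, 30.2 and 35.9 FPKM in 18M and at 11.96, 29.1 and 18.1 FPKM in 5Y. The ages did not overlap, but 5Y replicate 2 lay next to the 18M libraries. The log2 fold change was -0.85 ± 0.31, or -0.54 without 5Y replicate 1 and -1.17 without 5Y replicate 2, where it passed the thresholds. NFIL3, needed for NK cell and innate lymphoid cell development, was at 15.2 ± 2.49 and 14.1 ± 3.15 FPKM, SMAD3 at 4.48 ± 1.22 and 4.33 ± 0.621 FPKM and IRF8, a factor of macrophages and dendritic cells, at 1.64 ± 0.121 and 1.88 ± 0.523 FPKM (18M and 5Y, SD, n = 3). SMAD6, an inhibitor of BMP signalling, had a log2 fold change of 1.19 ± 0.65 that rested on 5Y replicate 1, and it was 0.48 without that library. It passed the thresholds without 5Y replicate 2 (1.62). ADAMTS10, a row with transcription factor terms, was listed at 0 in 5 of the 6 libraries.

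The remaining members had mixed roles. METTL9 was at 9.30, 8.69 and 7.40 FPKM in 18M and at 20.3, 12.3 and 13.8 FPKM in 5Y. Every 5Y library was higher, with a log2 fold change of 0.83 ± 0.22 that was 0.62 without 5Y replicate 1. IGSF6, the immune receptor gene that overlaps METTL9 in the RefSeq table, is a member of its own and had a mean of 0.0637 FPKM in 18M and 0.190 FPKM in 5Y, without overlap. In FPKM, METTL9 was the more abundant gene of the pair. BMPR1A, a receptor for bone morphogenetic proteins, was at 2.29 ± 0.0309 FPKM in 18M and 3.40 ± 0.382 FPKM in 5Y (SD, n = 3) without overlap, and its log2 fold change was 0.54 ± 0.16.

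MYLPF, the regulatory light chain of fast skeletal muscle myosin, was the 1 member that passed the thresholds as lower in 5Y. It was at 4.69, 6.40 and 3.52 FPKM in 18M and at 1.69, 3.25 and 0.991 FPKM in 5Y. The ages did not overlap, although 18M replicate 3 and 5Y replicate 2 were close. The log2 fold change was -1.37 ± 0.42, and the call was lost without 5Y replicate 3 (-0.98). NCF4, a subunit of the phagocyte NADPH oxidase, was at 0.829, 0.710 and 0.819 FPKM in 18M and at 0.125, 0.502 and 0.470 FPKM in 5Y. All 5Y libraries were lower, replicate 1 most of all. Its log2 fold change of -1.05 ± 0.45 was -0.59 without that library, and the gene passed the thresholds without 5Y replicate 2 (-1.30) or 5Y replicate 3 (-1.27). SLPI, an antibacterial protease inhibitor, was at 5.92 ± 2.497 and 6.65 ± 4.74 FPKM, DPP8 at 9.09 ± 0.570 and 10.04 ± 0.948 FPKM and GPR65 at 0.524 ± 0.286 and 0.504 ± 0.123 FPKM.

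The 26 members of mixed role below the threshold had means of at most 0.443 FPKM. PKHD1L1 and IGSF6 were higher in 5Y and the row listed as TM7SF2 was lower, without overlap. For CST7, SERPINB9, S1PR4, PTGDR2, CD80, NRROS, IL18R1, IL18RAP, IL1RL1, ITGAD, CLNK, CD28, CNR2, CHST4 and NCR1, and for the rows listed as KIAA1755, ODF3L2 and TERB2, the ages overlapped. A row outside the list with the symbol CD28 (ENSBGRG00000012733) was above the threshold, with means of 6.19 FPKM in 18M and 5.35 FPKM in 5Y. AZGP1, VPREB3 and the rows listed as FSD1, GNAZ and LTB (ENSBGRG00000013286) were at 0 in every library. CST7, an inhibitor of proteases in cytotoxic lymphocytes, had the largest spread, with 1.29 FPKM in 5Y replicate 1 and at most 0.330 FPKM in the other libraries.

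The 3 libraries of 5Y were not alike. 5Y replicate 1 held the highest value for 20 of the 45 tested members (44.4%, beside 33.7% of all genes tested) and the lowest for 11 (24.4%, beside 35.5%). The summed FPKM of the 165 members was 526 to 635 in the 18M libraries, 1015 in 5Y replicate 1, 638 in replicate 2 and 733 in replicate 3. The median difference of the tested members from their 18M mean was 0.37, 0.16 and 0.36 on the log2 scale in 5Y replicates 1, 2 and 3. The number of members above 0 in a library was 96 to 104 in 18M and 98 to 110 in 5Y.

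N6-methyladenosine (m6A) is a methyl mark on mRNA. An m6A difference between the ages was listed for 1 of the 45 tested members and for none of the others in the list. The share with a differential m6A peak was 9.29% of all genes tested and 5.63% of all genes in the table. The member was FYCO1 (ENSBGRG00000009853), whose product links autophagosomes to kinesin, and which carried the chemokine receptor terms of CXCR6. It had 2 differential peaks on LU_Bosgru_v3.0, in a gene on the minus strand at chr22:8550124-8634781. The peak at chr22:8592792-8594929 is 2138 bp long and was annotated to exon 12 of 18, and the peak at chr22:8605844-8605994 is 151 bp long and was annotated to exon 8 of 18. The input level of FYCO1 was 4.87, 5.29 and 4.397 FPKM in 18M and 3.40, 4.58 and 4.43 FPKM in 5Y. The ages overlapped, and the log2 fold change was -0.23 ± 0.17. The table gives neither a direction nor a value per animal for a peak, so the 2 readouts were not compared further. None of the MHC class I, ferritin or TNF family members had a listed peak.

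Other genes of these pathways were read from 10 lists of 211 symbols. Of 122 such genes that are in the table and are not members, 58 were tested. Of these, 46 had a higher mean in 5Y (beside 53.5% of all genes tested) and the median log2 fold change was 0.48. By the same thresholds 12 were higher (beside 4.01% of all genes) and 4 lower (beside 5.25%). Without 5Y replicate 1 these were 7 (beside 1.99%) and 0 (beside 1.31%). The lists were chosen with earlier results of these data known, so nothing is read from these counts either. The interferon-induced chemokines CXCL9, CXCL10 and CXCL11 were higher by 3.45 ± 0.51, 2.5 ± 0.67 and 1.78 ± 0.66. These carry the immune response term but were left out of the members by their antimicrobial term. Of 10 complement genes tested, 4 were higher, C1QA (1.07 ± 0.37), C1QB (1.30 ± 0.40), C1QC (1.32 ± 0.39) and the receptor C3AR1 (1.18 ± 0.49). Of 9 interferon-stimulated genes tested that are not members, IFI6 (1.34 ± 0.39) and the STAT partner IRF9 (1.19 ± 0.35) were higher.

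Among the receptors of the lists, CD40, the B cell and macrophage receptor of the TNF family, was higher by 1.93 ± 0.36, and IL2RB, a chain of the IL-2 and IL-15 receptors, by 1.4 ± 0.37. The remaining calls, like that of C1QC, were on symbols that stood on several identifiers. They were CD40LG as higher and CCL21, TNFSF12, TNFRSF21 and IL12RB2 as lower. None of the 7 toll-like receptor and adaptor genes tested outside the list passed the thresholds, though all 7 had a higher mean log2 level in 5Y. The row taken for TLR7 (ENSBGRG00000019310) carried a symbol that stood on 46 identifiers, so its identity is uncertain. It had means of 115 FPKM in 18M and 224 FPKM in 5Y, where the member row listed as TLR7 had a mean of 0.435 FPKM. No call was made among the 3 other chemokine receptors, the 2 Fc receptor genes and the 1 interleukin 1 family gene tested. When the lowest-numbered identifier was taken for each shared symbol, 12 genes were higher and 1 lower.

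The sums of some marker lists of immune and testicular cell types differed between the age labels, and those of others overlapped. In bulk tissue, fewer cells of a type and less RNA per cell cannot be told apart. Markers were summed over those whose symbol stood on 1 identifier. The 6 T cell markers summed to 1.71 to 3.97 FPKM in 18M and to 4.16 to 8.96 FPKM in 5Y. CD3D (0.94 ± 0.43) and LCK (1.47 ± 0.47) were higher without overlap, while CD3G was at 0 in 2 of the 18M libraries and at most 0.131 FPKM elsewhere. The 3 NK cell markers summed to 0.737 to 1.47 FPKM in 18M and to 2.43 to 6.27 FPKM in 5Y, led by NKG7 with a log2 fold change of 1.87 ± 0.45. The cytotoxic granule protein PRF1 differed by 1.4 ± 0.46, and GZMA was at 0 in 2 of the 18M libraries.

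The 8 macrophage markers summed to 28.5 to 36.1 FPKM in 18M and to 40.4 to 46.2 FPKM in 5Y, but not all went the same way. C1QA and C1QB were higher, whereas CD163 (-1.16 ± 0.37) and AIF1 (-1.27 ± 0.37) were lower in 5Y. Without C1QA and C1QB the macrophage sums of the ages would overlap. The 4 neutrophil markers summed to 7.30 to 10.7 FPKM in 18M and to 3.45 to 5.25 FPKM in 5Y, and S100A12 alone carried this difference (-1.15 ± 0.29). CSF3R had a log2 fold change of 0.23 ± 0.27, MPO overlapped between ages, and S100A9 was at 0 in every library. The 6 B cell and plasma cell markers overlapped between ages, at 1.12 to 1.69 FPKM in 18M and 0.953 to 1.83 FPKM in 5Y.

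Among the other cells of the testis, the lists did not go one way. The 4 Sertoli cell markers summed to 70.1 to 81.1 FPKM in 18M and to 100.5 to 244 FPKM in 5Y, and the 6 peritubular and stromal markers to 24.3 to 27.6 FPKM and 36.2 to 58.3 FPKM. The 2 elongating spermatid markers on 1 identifier summed to 159 to 179.6 FPKM in 18M and to 31.7 to 111 FPKM in 5Y. The 2 round spermatid markers summed to 63.1 to 96.2 FPKM in 18M and 18.6 to 75.9 FPKM in 5Y, the 4 spermatogonial markers to 40.3 to 47.6 FPKM and 49.6 to 96.1 FPKM, and the 4 spermatocyte markers to 26.3 to 27.3 FPKM and 28.7 to 29.7 FPKM. STAR of Leydig cells lay between 8.60 and 15.4 FPKM in 18M and between 4.83 and 6.30 FPKM in 5Y. CYP11A1, the other Leydig cell marker in the table, stood on several identifiers. Its means were 2.30 FPKM in 18M and 2.29 FPKM in 5Y, with overlap and a log2 fold change of 0.12 ± 0.44. The sums of the endothelial, mast cell and dendritic cell markers overlapped between ages. Both erythroid markers in the table, which stood on several identifiers, overlapped too. With markers on several identifiers included, 4 lists read differently. The mast cell list was then at 15.6 to 18.8 FPKM in 18M and 3.21 to 10.3 FPKM in 5Y through MS4A2 (-1.48 ± 0.38, lower without overlap), the round spermatid list no longer overlapped (219.9 to 270.5 FPKM and 68.0 to 218 FPKM), and the T cell list (7.54 to 10.6 FPKM and 9.99 to 13.3 FPKM) and the spermatocyte list (49.1 to 49.98 FPKM and 47.3 to 53.1 FPKM) did. 5Y replicate 1 had the highest sum for T cells, NK cells and Sertoli cells and the lowest for elongating spermatids. The part of these cell types in the values of the members was not tested.

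**Figure D5:**
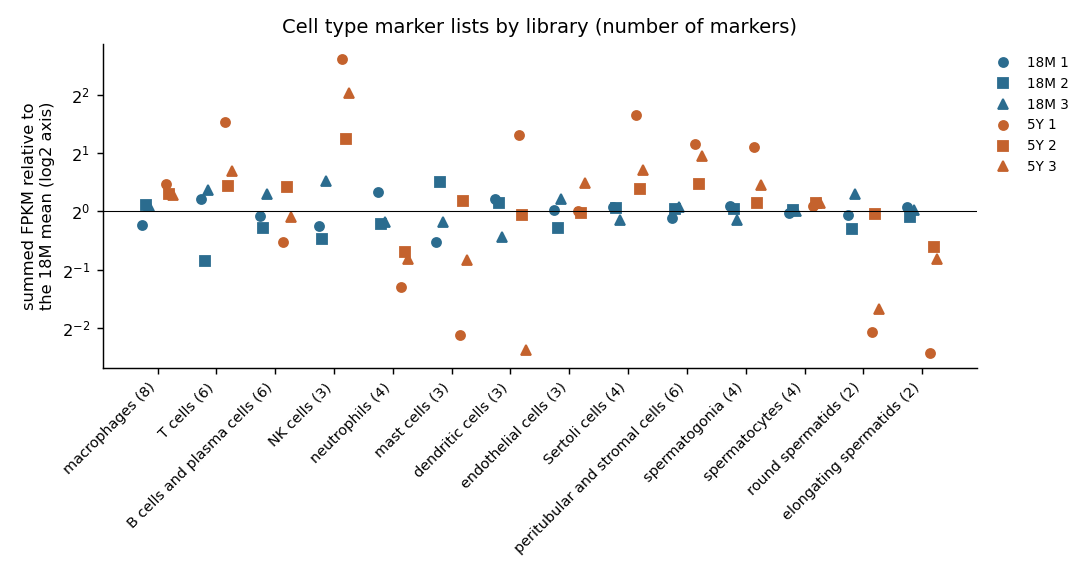
FPKM summed over each cell type marker list (number of markers in brackets, symbols on 1 identifier), divided by the mean of the 18M libraries, on a log2 axis. NK cell, T cell, Sertoli and stromal lists and, through C1QA and C1QB, the macrophage list lie above 1 in all 5Y libraries (orange). The elongating spermatid list and, through S100A12, the neutrophil list lie below 1.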

How the data were processed

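FPKM values per gene and input library were deposited by the authors. Per their methods, reads were trimmed with Trimmomatic, rRNA reads were removed with SortMeRNA, and the rest were aligned with HISAT2 (2.0.4 in the submitters' processing notes) to LU_Bosgru_v3.0, with multiply mapped reads dropped. Libraries were made with a stranded mRNA kit. How FPKM was computed, and whether it used strand, is not given in the sources used here, so the values of overlapping genes are uncertain. Peak widths and other annotation of 1438 differential peaks were taken as deposited; peaks had been called and compared with MeTDiff and annotated with ChIPseeker by the authors. A pair of short peak lists of single groups was not used. Columns of unassigned samples numbered 0.

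The age in the titles set the groups. The members, gene lists and thresholds were chosen with earlier results of these data known. For the 5Y against the 18M input libraries (3 each), limma (3.58.1, R 4.3.3; lmFit and eBayes with trend) was run on log2(FPKM + 0.1), two-sided, for 12437 genes with a mean of at least 0.5 FPKM, with Benjamini-Hochberg adjustment over all of them. Each library is 1 animal. With 3 against 3 an exact two-sided permutation test cannot go below 0.1. A call is an unadjusted p under 0.05 with a fold above 2. In a simulation of this comparison with 12437 genes, 200 of them changed by 2 on the log2 scale, the median recovered change was 2.02, 98.5% of the changed and 0.874% of the other genes were called. Its noise was independent between genes, without a deviating library, and every tested member differed by less than 2. These shares therefore do not apply to the members.

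Values in every library are given for called members, for members without overlap and an absolute log2 fold change above 0.58, for the 5 with the highest mean and for those with a differential peak. Library ranges of members below the threshold were added after their values were seen, and 1 member is not reported here. Groups were built from GO terms, with a few exceptions. LTBR, MAP3K14, IRAK1BP1, COLEC12 and rows with TRAV, TRBV or IGHM symbols were also matched by symbol. NCR1 was kept out of the MHC class I group by symbol, and SMAD3 and BMPR1A were placed by hand. Pathway and cell type lists were written by hand, and for a symbol on several identifiers the one with the highest mean was taken; 3871 symbols in the table stood on more than one. The RefSeq gene table of the assembly Bosgru_T2T1.0, another build, served only for symbols (133 of 165 members matched) and neighbours. Alternatives were the pseudocount, the filter, library scaling, the eBayes settings, a replicate block, leaving out each library, the fold, adjusted p and the genes left out. Python 3.11.15 and pandas 2.3.3 were used for the rest.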

Additional observations from a re-analysis of the deposited data

How the results depend on the processing

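The number of fragments per value is unknown, so the precision of low values rests on 3 libraries per age. Main values were 6 members higher, 1 lower, 11 and 6 without overlap, a median of 0.46, and 12 and 4 pathway genes higher and lower. With a pseudocount of 1, 1 member was higher, the median was 0.21 and 3 and 2 pathway genes were called as higher and lower (0.989% and 3.04% of all genes). With every gene above 0 in at least 1 library, 15 members of 135 were higher and 6 lower (3.91% and 4.37% of all genes), 23 and 11 did not overlap (16.3% and 11.1%) and the median was 0.26. At a mean of at least 1 FPKM the median was 0.15 and 7 pathway genes were higher (beside 3.25% of all genes). Scaling libraries to the same sum gave a median of 0.57 (all genes 0.17) and 2 pathway genes lower (beside 3.91% of all genes). Quantile normalization gave 2 members lower (beside 5.11% of all genes) and a median of 0.31. With medians set equal, without the trend and with robust eBayes, 2 were lower, beside 5.89%, 5.00% and 5.23% of all genes. A fold of 1.5 gave 3 lower, for which no share over all genes is given. With an adjusted p under 0.05 there were 0 in each direction, as the bar is stricter. With MHC class II and antimicrobial peptide genes kept, 13 of 53 were higher and 19 did not overlap (4.01% and 19.8% of all genes).

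Leaving out 1 library at a time gave 3 to 8 members higher (3 without 5Y replicate 1) beside 1.99% to 7.32% of all genes, 1 to 3 lower (3 without 5Y replicate 2) beside 1.31% to 8.98%, 11 to 19 and 6 to 8 without overlap (19 without 5Y replicate 2, where 33.4% of all genes did not overlap as higher in 5Y), medians of 0.18 to 0.53 (0.18 without 5Y replicate 1, 0.27 without 18M replicate 1, 0.21 without 5Y replicate 3), and 7 to 20 and 0 to 5 pathway genes higher and lower (20 and 5 without 5Y replicate 2, 7 and 0 without 5Y replicate 1). Fewer libraries also give fewer chances of overlap. Without 5Y replicate 2, 2403 of all 12437 genes had an adjusted p under 0.05 in limma, where 4 had in the main fit. The number of members among the 2403 is not given.

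Alternatives chosen after seeing the data were 3. Among members whose symbol stood on 1 identifier the median was -0.074, reversed from the main value, with 0 higher. With at least 0.5 FPKM at both ages the median was 0.24. With the lowest-numbered identifier 1 pathway gene was lower. The cause of these shifts was not tested. Replicate numbers did not pair the samples (correlations of same-numbered deviations -0.022, -0.091 and 0.0067), and the fit with the replicate block gave 6 members higher, 1 lower and a median of 0.46.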
